A study of Rattus norvegicus with 5 samples.

Results

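Col4a1 (ENSRNOG00000016281) and Col4a2 (ENSRNOG00000023972), the genes of the 2 chains of the common basement membrane collagen, were followed in cultured heart cells of newborn rats, by single-cell RNA sequencing of 5 libraries. They were chosen by name as a pair and make up 2 of the 15077 genes listed in every table. The cultures came from ventricles of wild type Sprague Dawley rats at postnatal day 2 and held myocytes as well as other cells, per the labels. They had been given an adenovirus carrying GFP or an adenovirus carrying TBX18, a transcription factor of the embryonic heart. For each virus there was 1 library at day 3 and 1 at day 14. The other library came from cells given the TBX18 virus and A83-01, an inhibitor of TGF-beta type I receptors, at 0.2 µM. Its title and description place it at day 14 and its treatment label gives 3 days, so the length of exposure is not settled here. No untreated culture without virus was among these libraries. With 1 library in each group, differences between groups carry no replicate error and were given no p-value. The labels do not say how many animals went into a culture. All intervals are 95% intervals for counting error alone.

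Type IV collagen is the network-forming collagen of basement membranes, the thin sheets that surround cardiac myocytes and underlie vessels. Its common form is a trimer of 2 alpha 1 chains, made from Col4a1, and 1 alpha 2 chain, made from Col4a2. In the heart it is made by fibroblasts, by cells of vessel walls and, at lower levels, by myocytes. TGF-beta signalling is known to raise the production of many matrix proteins, collagens among them.

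The genes lie head to head on rat chromosome 16, Col4a2 on the minus strand and Col4a1 on the plus strand, and are read away from each other from 1 shared stretch. The bases between their RefSeq start sites are shown because the data follow both genes that start from it. On the GRCr8 build they occupy chr16:84885521-84885596, outside both transcripts, and read as follows on the plus strand, with the match to a GC box (GGGCGG on the minus strand) in capitals.
between the Col4a2 and Col4a1 starts: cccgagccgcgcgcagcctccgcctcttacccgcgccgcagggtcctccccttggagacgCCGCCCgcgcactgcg
This stretch is 76 bases long and 78.9% G or C, against a median of 53.9% in windows of the same length upstream of 33469 RefSeq rat genes, of which 95.1% were lower. A GC box in either direction occurred in 18.1% of those windows. Searched on both strands, the stretch held no CCAAT (in 13.0% of windows), no TATAAA (4.61%) and no CAGAC, a letter string found in Smad binding elements (14.4%). These matches describe the letters alone. No other strings were searched for, so shorter or variant forms of these elements may be present. Of 16845 plus-strand genes, 343 (2.04%) had a minus-strand start as close as this.

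The 5 libraries held 8859, 6781, 6424, 8337 and 7618 cell barcodes, in the order GFP day 3, TBX18 day 3, GFP day 14, TBX18 day 14 and TBX18 with A83-01. Their median depth was between 15610 and 28566 UMIs, the tags that mark single captured RNA molecules. The tables of day 3 and day 14 differ in unit, gene list and range of cells. Day 14 tables start at 1993 genes per cell and end at 5592, while day 3 tables run from 28 to 7758, so day and table type cannot be told apart. Any pair of libraries shared between 7 and 20 barcodes. Clustering of the 34888 cells kept, without the virus features and without the pair itself, gave 26 clusters that fell into 2 compartments. Names of cell types were not given to them, because none of the 17060 Ensembl IDs could be paired with a symbol here. The myocytes and the other cells of the cultures could therefore not be told apart by their markers. The compartments are called virus-rich and virus-poor after the control virus: EGFP stood at 95.9 CPM (UMIs per 1000000 UMIs of all genes) in the former and 6.64 CPM in the latter in the GFP library at day 3. At day 14 these values were 163 CPM and 14.4 CPM. Virus-rich cells made up 59.0%, 51.4%, 33.4%, 16.1% and 34.2% of the 5 libraries. Clusters 13 and 22 of the virus-rich compartment also carried RNA typical of the other compartment. These mixed clusters held 1.97% and 2.14% of virus-rich cells at day 3 and between 12.6% and 14.1% at day 14. Whether they are doublets was not tested, so the virus-rich levels, detection shares and ratios are given with and without them.

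In the virus-poor compartment Col4a1 was an abundant transcript in all 5 libraries, between rank 85 and rank 171 of all genes. Among the libraries of day 3, its summed level was 975 CPM (968 to 982) with GFP and 1084 CPM (1077 to 1091) with TBX18. The day 14 level was 1784 CPM (1774 to 1795) with GFP and 1832 CPM (1824 to 1841) with TBX18. With TBX18 and A83-01 the level was 1191 CPM (1184 to 1199). The GFP and TBX18 libraries of day 14 lay above both libraries of day 3, and the library with A83-01 fell between the days. No neighbouring levels in this order had overlapping counting intervals, and the spread between cultures is unknown.

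Col4a2, the partner chain, was measured at fewer UMIs in the same cells. Its virus-poor level was 72.8 CPM (70.9 to 74.7) with GFP and 72.1 CPM (70.3 to 73.9) with TBX18 at day 3, which cannot be told apart by counting error. The day 14 level was 139 CPM (136 to 142) with GFP and 163 CPM (161 to 166) with TBX18. Where A83-01 had been added it was 112 CPM (109 to 114). The order of the 3 libraries of day 14 was the same for both chains.

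**Figure D1:**
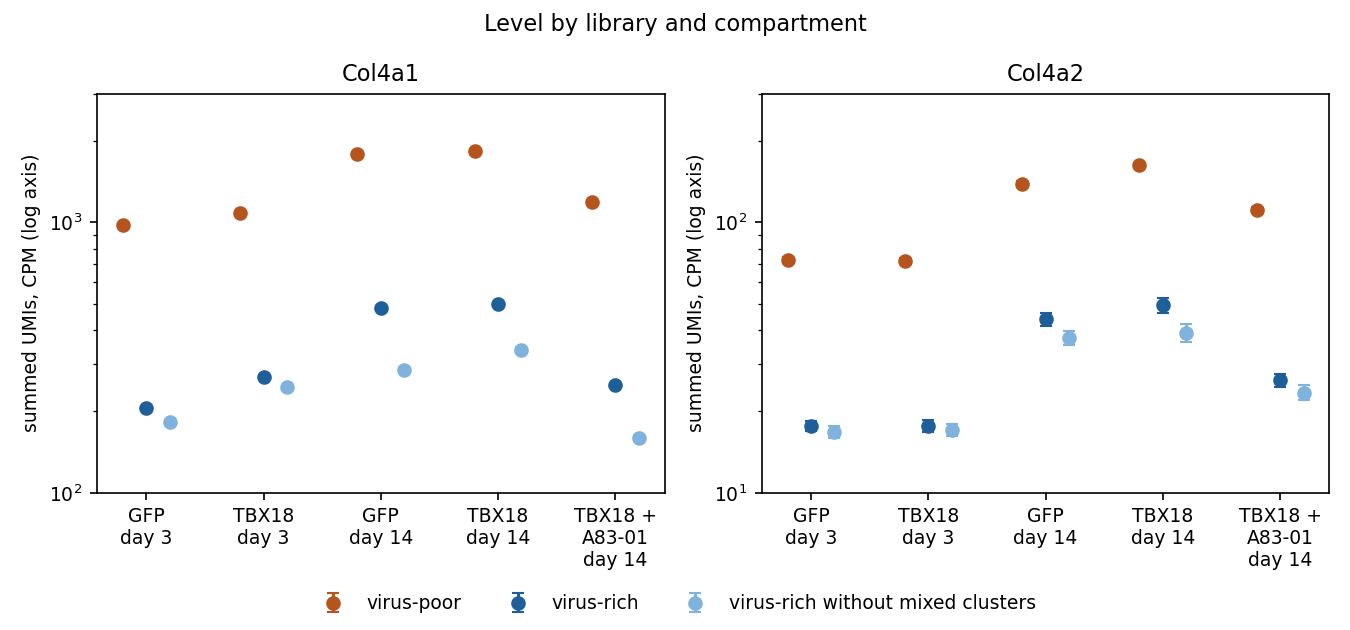
Summed level of Col4a1 (left) and Col4a2 (right) in CPM on a log axis, for each library (x axis) and compartment, with exact 95% Poisson intervals; there is 1 library per group. Every virus-poor level, for example 975 CPM for Col4a1 with GFP at day 3, lies above the virus-rich level of the same library, and the library with A83-01 lies below the other libraries of day 14 in each series.

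Virus-rich cells held both chains at a lower level. Their Col4a1 level was 205 CPM (202 to 208) with GFP and 269 CPM (265 to 272) with TBX18 at day 3. The day 14 level was 483 CPM (476 to 491) with GFP and 499 CPM (490 to 509) with TBX18. The culture with A83-01 stood at 251 CPM (246 to 255). When the mixed clusters were left out, the 5 values were 184, 246, 285, 338 and 160 CPM. The mixed clusters thus moved the day 14 values far more than those of day 3, and without them the library with A83-01 was the lowest of the 5.

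For Col4a2 the virus-rich levels were 17.7 CPM with GFP and 17.6 CPM with TBX18 at day 3. At day 14 they were 43.8 CPM with GFP, 49.4 CPM with TBX18 and 26.1 CPM with TBX18 and A83-01. Outside the mixed clusters the 5 values became 16.8, 17.0, 37.4, 39.1 and 23.5 CPM. The library with A83-01 stayed above both libraries of day 3 for this chain, unlike for Col4a1.

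Within each library, Col4a1 was 4.75, 4.03, 3.69, 3.67 and 4.76 times higher in virus-poor than in virus-rich cells, in the library order above. Leaving out the mixed clusters gave folds of 5.31, 4.40, 6.25, 5.42 and 7.46. Col4a2 was 4.12, 4.09, 3.18, 3.31 and 4.27 times higher, and 4.34, 4.23, 3.72, 4.18 and 4.75 times without the mixed clusters. Of the genes compared in a library, between 89.0% and 91.5% had a lower fold than Col4a1, and between 86.6% and 90.5% a lower one than Col4a2. Without the mixed clusters these shares were between 91.0% and 92.5%, and between 86.0% and 91.0%. Summed over its cells, the virus-poor compartment supplied 78.3% of all Col4a1 UMIs with GFP and 79.3% with TBX18 at day 3. At day 14 it supplied 88.0% with GFP, 94.9% with TBX18 and 88.7% with A83-01. These shares depend on the number and depth of virus-poor cells as well as on the level in them.

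RNA released from virus-poor cells can enter any droplet, so the virus-rich level was set beside that of 50 genes chosen because they separated the compartments most. Without the mixed clusters, these genes stood in virus-rich cells at a median of 0.61%, 0.977%, 1.20%, 2.85% and 0.968% of their virus-poor level. The highest of the 50 reached 1.69%, 5.84%, 7.61%, 12.1% and 3.72%. Col4a1 stood at 18.8%, 22.7%, 16.0%, 18.4% and 13.4%, above all 50 in each library. Col4a2 stood at 23.1%, 23.6%, 26.9%, 23.9% and 21.0%, also above all 50. The 50 genes were picked for a low share and spread widely within a library, so they are no background of ordinary genes. Their UMIs also marked the mixed clusters that were left out, so their low values follow in part from that choice. The place of the pair above them therefore cannot show where its RNA in virus-rich cells came from. How much of the virus-rich level of the pair is carried-over RNA was not tested.

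**Figure D2:**
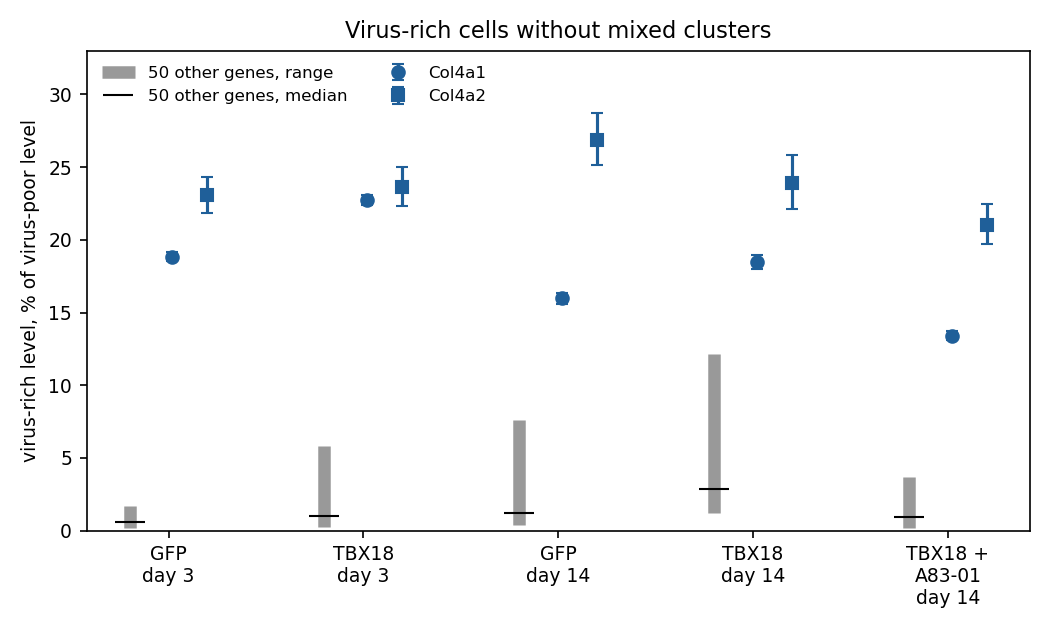
Level in virus-rich cells without mixed clusters as a percentage of the virus-poor level (y axis) in each library (x axis), for Col4a1 (circles) and Col4a2 (squares) with exact 95% intervals; bars give the range and dashes the median of 50 genes chosen for separating the compartments. Both chains lie above the highest of the 50 genes in every library, at 16.0% and 26.9% against 7.61% with GFP at day 14, for example. The 50 genes also marked the mixed clusters, so their low values follow in part from the choice of genes and cells.

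The pair was detected in a larger share of virus-poor than of virus-rich cells. With each cell thinned to 5000 UMIs, 86.9% and 92.0% of virus-poor cells had a Col4a1 UMI with GFP and TBX18 at day 3. The share at day 14 was 95.2% with GFP, 98.4% with TBX18 and 95.9% with A83-01. The share with A83-01 was thus not below that with GFP, although its level was, and no order is read from it. The median thinned cell held 4 and 5 Col4a1 UMIs at day 3, 8 in both day 14 libraries without A83-01, and 5 with A83-01. At day 3, 46 virus-poor cells of each library were too shallow for this, and between 0 and 3 at day 14. Unthinned shares were 91.6%, 95.1%, 96.4%, 99.5% and 99.1%.

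Among virus-rich cells the thinned share for Col4a1 was 58.9%, 69.1%, 75.6%, 78.0% and 55.6%, and between 90.4% and 95.7% unthinned. Outside the mixed clusters the thinned share was 58.1%, 68.4%, 72.1%, 74.5% and 50.1%. For Col4a2 the thinned share in virus-poor cells was 25.2%, 26.5%, 43.1%, 49.2% and 37.9%. It was 7.62%, 8.66%, 17.4%, 18.6% and 11.5% in virus-rich cells, or 7.48%, 8.41%, 15.9%, 15.8% and 10.8% without the mixed clusters. Cluster 17 had the lowest Col4a1 level of the virus-poor clusters at day 3. Of its cells with GFP, 15.3% had a Col4a1 UMI, unthinned and at a median of 17508 UMIs. Among virus-rich cells of that library the share was 91.9%, at a median of 22424. With TBX18 at day 3 the share in cluster 17 was 28.5%. In cluster 18, the lowest virus-poor cluster of day 14, it was 23.0% with GFP, 63.5% with TBX18 and 21.7% with A83-01. These clusters were picked for their low level, so their shares are no background for other cells. In thinned virus-poor cells, the tenth of cells with most Col4a1 held 31.1%, 26.4%, 23.8%, 23.6% and 25.7% of its UMIs in the 5 libraries. Counting error alone also spreads such counts, and its part was not computed.

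Addition of A83-01 to TBX18 asks what the pair does when TGF-beta receptor signalling is inhibited. Both chains were lower in the library with A83-01 than in the TBX18 library of day 14, in both compartments. In virus-poor cells Col4a1 was at 0.650 times the level of the TBX18 library, a log2 ratio of -0.62 (-0.63 to -0.61), and Col4a2 at 0.683 times, -0.55 (-0.59 to -0.51). Of the 4988 genes compared in this compartment, 13.4% had a lower ratio than Col4a1 and 16.2% a lower one than Col4a2. Neither member was past 2-fold, the size used here to call a gene, which 8.6% of all genes passed. Median-of-ratios scaling, which centres most genes at no change, gave -0.51 for Col4a1 and -0.44 for Col4a2.

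In virus-rich cells Col4a1 stood at 0.502 times the level with TBX18 alone, a log2 ratio of -0.99 (-1.03 to -0.96), and Col4a2 at 0.529 times, -0.92 (-1.04 to -0.80). The median of all 4513 genes compared there was itself at -0.38, against -0.09 in virus-poor cells. With median-of-ratios scaling Col4a1 was at -0.60 and Col4a2 at -0.52, close to the virus-poor values. Without the mixed clusters Col4a1 was at -1.08 and Col4a2 at -0.74, with the median of all genes at -0.40. Col4a1 then counted as past 2-fold, as did 10.7% of all genes, against 10.5% with the mixed clusters, where neither member passed. Rescaled by median-of-ratios, these cells gave -0.66 for Col4a1 and -0.32 for Col4a2, so that the call of Col4a1 was lost. These comparisons and those of TBX18 with GFP at day 14 share the TBX18 library. The virus-rich share of cells was 34.2% with A83-01 and 16.1% without. hTBX18, the virus gene, was at 7.32 CPM with A83-01 and 8.90 CPM without in virus-rich cells. The part of these in the result was not tested.

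TBX18 and GFP libraries differed less. At day 3 Col4a1 was 1.11 times higher with TBX18 in virus-poor cells, a log2 ratio of 0.15 (0.14 to 0.17), and 1.31 times higher in virus-rich cells, 0.39 (0.36 to 0.42). Without the mixed clusters the virus-rich ratio was 0.42, and median-of-ratios scaling gave 0.25 and 0.47 in the 2 compartments. Of all genes, 84.3% in virus-poor and 83.9% in virus-rich cells had a lower ratio than Col4a1. For Col4a2 the log2 ratio was -0.02 (-0.07 to 0.04) in virus-poor cells and -0.0037 (-0.10 to 0.09) in virus-rich cells, or 0.021 (-0.080 to 0.12) without the mixed clusters. Neither member was past 2-fold, as were 1.94% of all genes in virus-poor cells, 8.2% in virus-rich cells and 8.5% there without the mixed clusters.

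At day 14 the direction of TBX18 over GFP depended on the scaling. Col4a1 had a log2 ratio of 0.04 (0.03 to 0.05) in virus-poor cells by totals and of -0.09 by median-of-ratios scaling. In virus-rich cells these were 0.05 (0.01 to 0.08) and -0.16, or 0.24 and 0.0019 without the mixed clusters. Col4a2 was at 0.23 (0.19 to 0.27) in virus-poor cells and 0.10 after rescaling, so its sign held there. In virus-rich cells it was at 0.17 (0.06 to 0.29) and at -0.03 after rescaling, but at 0.063 (-0.080 to 0.21) and -0.18 without the mixed clusters, so no direction holds there. The median of all genes was 0.13 in virus-poor and 0.20 in virus-rich cells, and 2.71% and 3.86% of all genes were past 2-fold (5.61% of virus-rich genes without the mixed clusters), with neither member among them.

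Between day 3 and day 14 both chains were higher at the later day with either virus. In the GFP libraries Col4a1 was 1.83 times higher in virus-poor cells, a log2 ratio of 0.87 (0.86 to 0.89), and Col4a2 1.91 times, 0.93 (0.89 to 0.98). Neither passed 2-fold, as did 28.1% of all genes. In virus-rich cells the GFP ratios were 1.24 (1.21 to 1.27) for Col4a1 and 1.31 (1.21 to 1.41) for Col4a2. Both counted as past 2-fold there, as did 18.4% of all genes. Without the mixed clusters Col4a1 was at 0.64 and only Col4a2, at 1.16, was past 2-fold, as were 18.0% of all genes.

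In the TBX18 libraries Col4a2 had the larger day 14 over day 3 ratio of the pair. Virus-poor cells gave 0.76 (0.75 to 0.77) for Col4a1 and 1.18 (1.14 to 1.22) for Col4a2, and 32.3% of all genes were past 2-fold. Virus-rich cells gave 0.89 (0.86 to 0.93) for Col4a1 and 1.49 (1.37 to 1.60) for Col4a2, with 20.2% of all genes past 2-fold. Col4a2 alone passed in each compartment. Outside the mixed clusters the virus-rich ratios were 0.46 and 1.20, where the median of all genes was 0.37, with 19.3% of all genes past 2-fold. Median-of-ratios scaling lowered the virus-poor ratios to 0.49 and 0.91, which left Col4a2 under 2-fold. In virus-rich cells it gave 0.52 and 1.12 with the mixed clusters, and 0.095 and 0.84 without them, where Col4a2 was under 2-fold as well. When day 3 cells were held to the day 14 range of genes and UMIs, the GFP virus-poor ratio of Col4a1 was 0.95 and that of Col4a2 1.04.

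**Figure D3:**
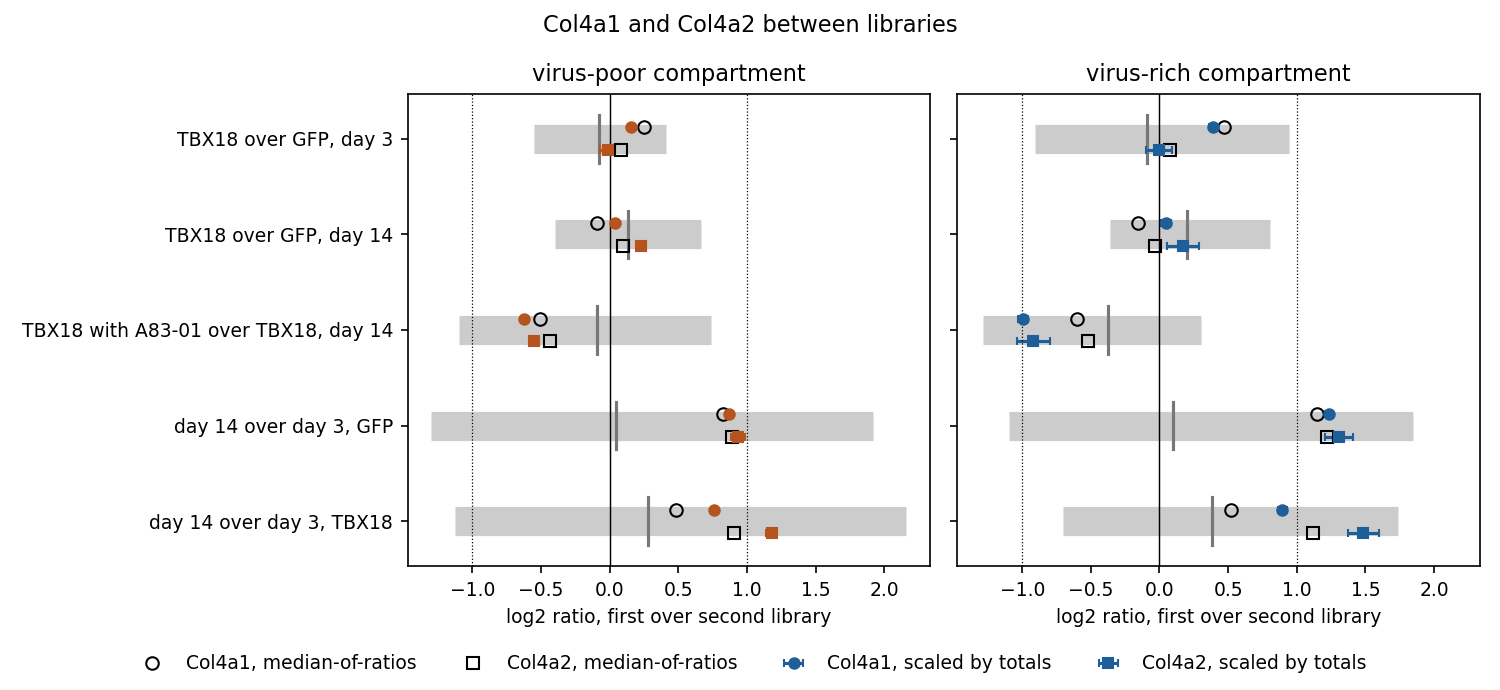
Log2 ratios between libraries (x axis) for the 5 comparisons (rows) in virus-poor (left) and virus-rich cells (right): filled circles for Col4a1 and filled squares for Col4a2 scaled by totals with 95% counting intervals, open symbols after median-of-ratios scaling, grey bars from the 5th to the 95th percentile of all genes, grey ticks at their median and dotted lines at 2-fold. The pair lies left of 0 with A83-01, at -0.62 and -0.55 in virus-poor cells, and right of 0 for day 14 over day 3, and inside the grey bar in every row.

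Clusters within a compartment differed more than libraries did. At day 3 the highest Col4a1 level was in virus-poor cluster 21, at 2284 CPM in 75 cells with GFP and 2040 CPM in 92 cells with TBX18. Cluster 17, also virus-poor, held 10.6 CPM and 16.3 CPM, with Col4a2 at 0.624 CPM (3 UMIs) and 0.693 CPM (2 UMIs). Between them lay the clusters with most virus-poor cells: cluster 8 at 1033 CPM in 1888 cells with GFP, and cluster 5 at 1124 CPM in 2292 cells with TBX18. Virus-rich cluster 20 was low as well, at 12.7 CPM and 11.8 CPM, but its cells were shallow, with median depths of 3288 and 4513 UMIs.

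At day 14 the largest virus-poor clusters held Col4a1 at 1787 CPM (cluster 2, 3461 cells with GFP), 1668 CPM (cluster 3, 3332 cells with TBX18) and 1144 CPM (cluster 0, 3809 cells with A83-01). Each of these 3 clusters came almost wholly from its library, as did 13 of the 26, where a cluster may be the library and not a cell type. The highest virus-poor level was 2313 CPM in cluster 4 with GFP (291 cells), 2042 CPM in cluster 2 with TBX18 (53 cells) and 1887 CPM in cluster 15 with A83-01. With TBX18, cluster 4 stood at 2038 CPM in 2824 cells, inside the counting interval of cluster 2 (1943 to 2144 CPM). Cluster 15, of 422 cells, was found with A83-01 only, so a high Col4a1 level was present in part of that culture. Cluster 18, the lowest virus-poor cluster of day 14, held 39.0 CPM with GFP, 236 CPM with TBX18 and 149 CPM with A83-01, while at day 3 the same cluster held 789 CPM and 853 CPM. Its small size, from 24 to 183 cells per library, limits that reading.

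Clusters that 2 libraries share allow a comparison among more alike cells. In all 3 virus-poor clusters shared by the TBX18 libraries with and without A83-01, Col4a1 was lower with A83-01. Cluster 12 had 1033 CPM in 406 cells against 1719 CPM in 265 cells, a log2 ratio of -0.73 (-0.78 to -0.69). Cluster 24 had 509 CPM in 22 cells against 1642 CPM in 79, and cluster 18 149 CPM in 46 cells against 236 CPM in 74. Of the 3 shared virus-rich clusters, mixed cluster 13 (840 against 1321 CPM) and cluster 19 (180 against 367 CPM) were lower with A83-01. RNA of virus-poor type was lower in both as well. Its median share of UMIs was 0.387% against 0.860% in cluster 13 and 0.0157% against 0.0464% in cluster 19. Cluster 9 was the exception, at 456 CPM in 58 cells with A83-01 against 338 CPM in 1024 cells. Those 58 cells carried RNA of virus-poor type at a median of 0.345% of their UMIs, against 0.0494% in the TBX18 cells of the cluster. The part of such RNA in the ratios of these virus-rich clusters was not tested.

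For Col4a2 the same contrast gave -0.64 (-0.79 to -0.48) in cluster 12 and -1.23 in mixed cluster 13, with an interval wholly below 0. Its log2 ratio was below 0 in all 6 shared clusters, and its interval lay below 0 in 3 of them. The median of all genes in this contrast was itself -0.09 in virus-poor and -0.38 in virus-rich cells. Virus-rich clusters 9 and 19, at -0.33 and -0.30, were not below that median. Neither was virus-poor cluster 18, at -0.03, which rested on 5 UMIs with A83-01 and 9 without. TBX18 over GFP had no common sign for Col4a1. At day 3 the interval lay above 0 in 3 and below 0 in 2 of 7 shared virus-poor clusters. At day 14 it lay above 0 in 3 and below 0 in 1 of 4, from -0.18 in cluster 4 to 2.60 in cluster 18. For Col4a2 no interval excluded 0 at day 3. At day 14 its ratio was above 0 in every shared cluster, at least 0.19 in the 4 virus-poor and 0.22 in the 3 virus-rich ones. The interval lay above 0 in 3 and 2 of them, and those 2 include mixed cluster 13, at 0.52. Over all virus-rich cells outside the mixed clusters the Col4a2 ratio was 0.063 (-0.080 to 0.21). The ratios of TBX18 over GFP at day 14 are scaled by totals, and the median of all genes was itself above 0 in both compartments.

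**Figure D4:**
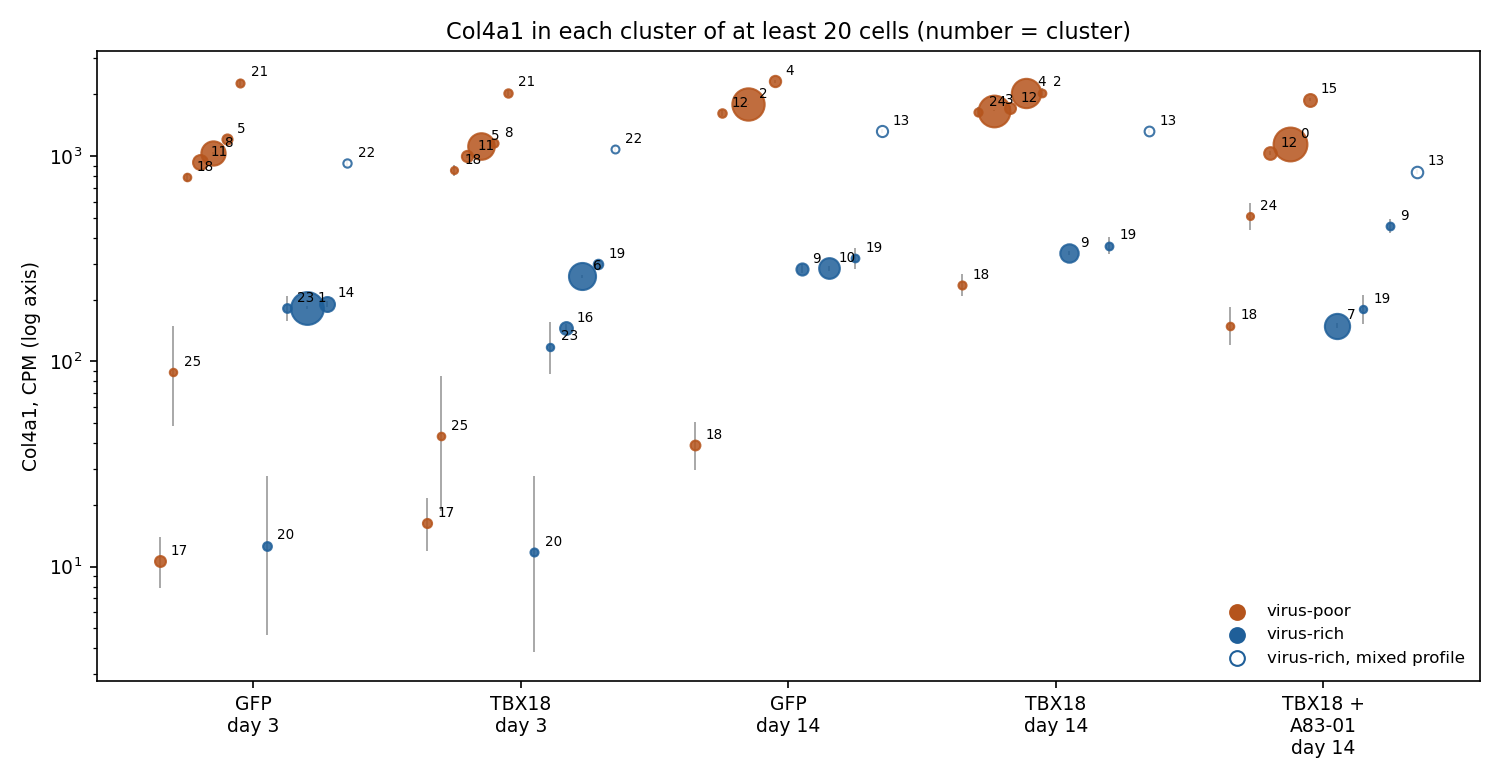
Col4a1 level in CPM on a log axis (y axis) in each cluster of at least 20 cells, by library (x axis); numbers name the clusters, the area of a point grows with its cells, bars are exact 95% Poisson intervals and open circles are the mixed clusters 13 and 22. Virus-poor clusters spread from 10.6 CPM (cluster 17) to 2284 CPM (cluster 21) with GFP at day 3, and the large clusters of each compartment lie in separate bands.

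The number of Col4a2 UMIs per 100 Col4a1 UMIs compares the partner chains within the same cells. End-counting captures each transcript with its own efficiency, so the ratio says nothing of the ratio of molecules or protein chains, but can be set side by side among libraries. In virus-poor cells it was 7.47 (7.27 to 7.67) with GFP and 6.65 (6.48 to 6.82) with TBX18 at day 3. The day 14 value was 7.80 (7.63 to 7.97) with GFP and 8.91 (8.77 to 9.05) with TBX18. With A83-01 it was 9.36 (9.16 to 9.56). In virus-poor cells TBX18 was thus below GFP at day 3 and above it at day 14. In virus-rich cells the values were 8.61, 6.56, 9.07, 9.89 and 10.4, and without the mixed clusters 9.14, 6.92, 13.1, 11.6 and 14.7. Without them TBX18 was below GFP at day 14 too, at 11.6 (10.7 to 12.5) against 13.1 (12.3 to 14.0). Mixed cluster 13 had fewer Col4a2 UMIs per 100 than the other virus-rich clusters of their library, at 5.35, 7.72 and 5.16.

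Cells with more Col4a1 held Col4a2 more often. Among virus-poor cells of GFP day 3 thinned to 5000 UMIs, 4.93% of cells without a Col4a1 UMI had one of Col4a2, 23.3% of cells with 3 to 5 and 72.4% of the 29 cells with 21 to 36. With A83-01 the share went from 13.1% of cells without a Col4a1 UMI to 93.8% of cells in the top class. Across virus-poor cells, which share library and compartment, Pearson's r of log2 of the thinned counts plus 1 was 0.36, 0.30, 0.34, 0.34 and 0.31 in the 5 libraries. Ranked by r with Col4a1, Col4a2 was gene 16 of 6089, 19 of 5858, 20 of 6860, 3 of 7294 and 1 of 7009. The highest r of any gene was 0.616, 0.580, 0.602, 0.349 and 0.309. These cells span clusters that differ widely in Col4a1, and the part of this in r was not tested. Of the 261 cells of cluster 17 with GFP at day 3, 15.3% had a Col4a1 UMI and 0.766% one of Col4a2, unthinned. In virus-rich cells r was between 0.07 and 0.23, which at these sparse counts is no finding.

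**Figure D5:**
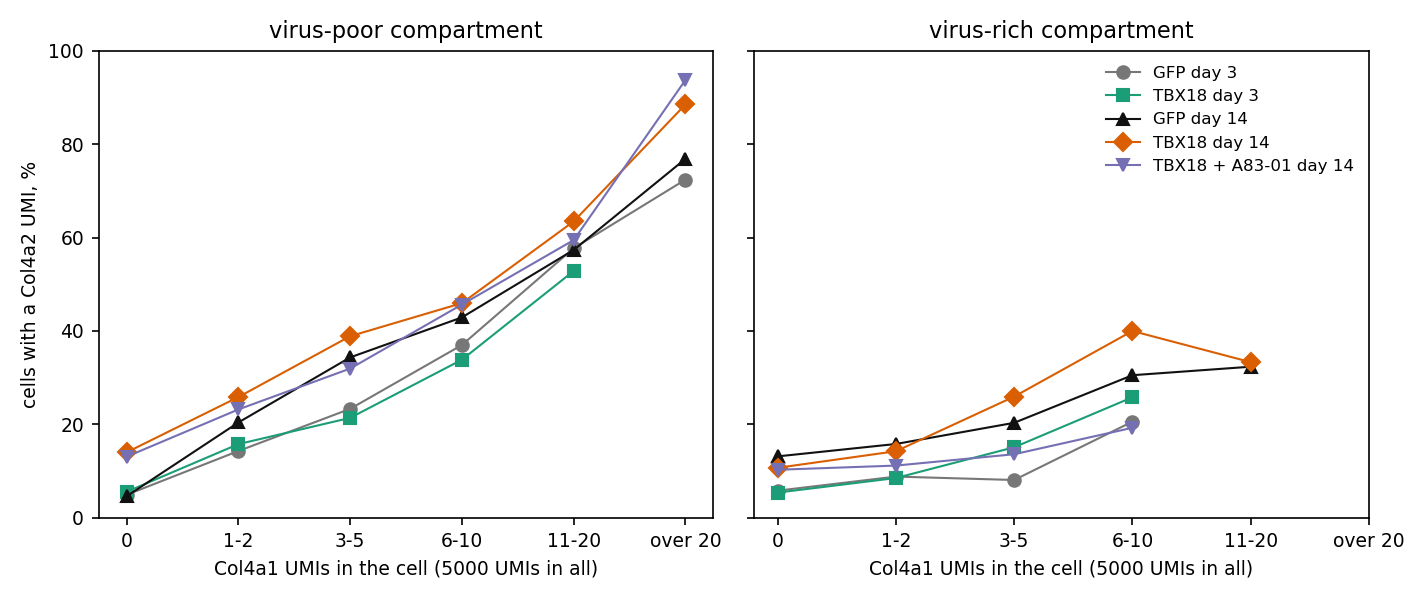
Percentage of cells with a Col4a2 UMI (y axis) by the number of Col4a1 UMIs in the cell (x axis), with each cell thinned to 5000 UMIs, in virus-poor (left) and virus-rich cells (right); lines join the classes of at least 20 cells of 1 library. In virus-poor cells every line climbs, from 4.93% to 72.4% with GFP at day 3, while virus-rich cells reach at most 40.0%.

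Over the 10 profiles made of 5 libraries and 2 compartments, the log2 levels of the 2 chains had a Pearson r of 0.981 and a Spearman rho of 0.952. The compartments stand far apart in these profiles, and 324 of 4966 genes had an r over 0.95 with Col4a1, among which Col4a2 was number 59. Within a compartment the likeness was less particular. Over the 5 virus-poor profiles r was 0.942, which placed Col4a2 at number 282 of 4966 genes, and Spearman's rho was 0.90 (number 354). Over the 5 virus-rich profiles r was 0.936 (number 302) and rho was 0.70 (number 1049). Likeness to the mean of both chains was highest for ENSRNOG00000008749 (r = 0.998), at a mean of 124 CPM in virus-poor and 10.5 CPM in virus-rich cells. ENSRNOG00000007892 followed (r = 0.996), at 238 CPM and 92.0 CPM. The least alike were ENSRNOG00000045967 (r = -0.988) and ENSRNOG00000012415 (r = -0.985), both higher in virus-rich cells.

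Virus-rich cells with a UMI of their own virus were also set against those without one, at 5000 UMIs per cell. For Col4a1 the log2 ratio of positive over negative cells was 0.06 (-0.03 to 0.15) with GFP and -0.11 (-0.20 to -0.02) with TBX18 at day 3. At day 14 it was -0.14 (-0.23 to -0.05) with GFP and -0.27 (-0.42 to -0.12) with TBX18. With A83-01 it was -0.08 (-0.24 to 0.07). Outside the mixed clusters these became 0.06, -0.13, -0.22, -0.14 and 0.05, and the TBX18 interval at day 14 then included 0. A cell without a virus UMI at this depth may still carry the virus. Col4a2 gave log2 ratios from -0.15 to 0.32, and its interval included 0 in every library but GFP day 3, where it ran from 0.0050 to 0.63 and included 0 without the mixed clusters.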

How the data were processed

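The deposited day 3 tables hold estimated counts of UMIs, nearly all whole, judging from the values. The deposited day 14 tables hold log2 of CPM plus 1 per cell, judging from the values; the log was undone and each cell divided by its most common nonzero value, taken as 1 UMI. STAR 2.7.8a, Partek and Rnor_6.0 are named in the submitters' processing notes, without their roles. Barcodes with under 500 genes and the top 6% of doublet scores were left out, since the caller's own threshold marked between 0 and 3.17% of cells. Cells were clustered with scanpy 1.11.5 and leidenalg 0.10.2 (2000 variable genes, 30 components, 20 neighbours, resolution 1), and counts were summed by library and compartment. A cluster was called mixed where its median share of UMIs from the 50 genes of the other compartment was over 10 times that of its compartment, a limit chosen after seeing the data. Intervals are exact Poisson, Clopper-Pearson or conditional. Genes were compared where their mean reached 20 CPM, with a pseudocount of 0.5 CPM. CPM is UMIs per 1000000 UMIs of the compartment. Recovery of counts and ratios was tested on simulated data. The text names the pair, the virus features and, of the genes most and least alike in pattern, 2 each. The marker and pathway lists prepared could not be applied, for want of gene names. The names Col4a1 and Col4a2 were given for the 2 IDs with the question, and the members and lists were chosen with earlier results of these data known.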

Additional observations from a re-analysis of the deposited data

Results flagged for a closer look

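Barcodes with under 500 genes were in no main comparison and entered only where the filter on genes per cell was omitted. They held UMIs of the pair at day 3, those of Col4a1 above the level that a count of 0 allows. Col4a1 stood at 8.63 CPM (45 UMIs over 731 barcodes) with GFP and at 11.8 CPM (35 UMIs over 292 barcodes) with TBX18 at day 3, where 3 counts would be 0.575 CPM and 1.01 CPM. Col4a2 stood at 1.35 CPM (4 UMIs) in the TBX18 library, with an interval from 0.368 to 3.46 CPM that includes the 1.01 CPM of 3 counts. With GFP it stood at 0.575 CPM, which is 3 UMIs and so at that limit. These levels were below every compartment level of the same libraries. With 1 library per group, no sample could be compared with others of its group.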

How the results depend on the processing

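Over 11 alternatives, 143 of 220 recomputed log2 ratios of the pair stayed within the counting interval of the reported value, 74 left it in the same direction or with an interval that included 0, and 3 reversed. Both A83-01 ratios stayed below 0 in both compartments, Col4a1 between -0.62 and -0.51 in virus-poor and between -1.25 and -0.60 in virus-rich cells, and all day 14 over day 3 ratios stayed above 0. The small TBX18 over GFP ratios have no settled direction for Col4a1 at day 14, nor for Col4a2 apart from virus-poor cells at day 14. Each group has 1 library, so the spread between cultures, which these counting intervals leave out, is unknown. In the sums of a compartment, more cells of a type and more RNA per cell of other types cannot be told apart. No paired analysis was possible because each group has 1 library and no replicate numbers are shared by separate samples of a group. Leaving out a replicate was not possible for the same reason. Clustering without the genes of the prepared lists, the purest cells by marker genes, the results of the lists and the share of cells in leukocytes were not run, because IDs could not be paired with names; the cells with most UMIs of the other compartment were left out instead, 25% of each compartment. That alternative, the mixed clusters and the separate clustering were chosen after seeing the data. The cause of the moves below was not tested.

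Median-of-ratios scaling gave log2 ratios for Col4a1 in virus-poor cells of 0.25 for TBX18 over GFP at day 3, -0.093 for TBX18 over GFP at day 14 (direction reversed), -0.51 for A83-01, 0.83 for day 14 over day 3 with GFP and 0.49 for day 14 over day 3 with TBX18. Col4a1 in virus-rich cells had 0.47 for TBX18 over GFP at day 3, -0.16 for TBX18 over GFP at day 14 (direction reversed), -0.60 for A83-01, 1.15 for day 14 over day 3 with GFP and 0.52 for day 14 over day 3 with TBX18. Col4a2 in virus-poor cells had 0.080 for TBX18 over GFP at day 3, 0.10 for TBX18 over GFP at day 14, -0.44 for A83-01 and 0.91 for day 14 over day 3 with TBX18. Col4a2 in virus-rich cells had -0.031 for TBX18 over GFP at day 14 (direction reversed), -0.52 for A83-01 and 1.12 for day 14 over day 3 with TBX18. Keeping cells with high doublet scores gave log2 ratios for Col4a1 in virus-rich cells of 0.45 for TBX18 over GFP at day 3, -0.93 for A83-01 and 1.36 for day 14 over day 3 with GFP. The Col4a2 ratio in virus-rich cells was 1.43 for day 14 over day 3 with GFP. Leaving out the top 12% of doublet scores gave log2 ratios for Col4a1 in virus-poor cells of 0.74 for day 14 over day 3 with TBX18. Col4a1 in virus-rich cells had 0.32 for TBX18 over GFP at day 3, 0.28 for TBX18 over GFP at day 14, -1.06 for A83-01, 0.86 for day 14 over day 3 with GFP and 0.81 for day 14 over day 3 with TBX18. That of Col4a2 in virus-rich cells was 1.17 for day 14 over day 3 with GFP. Leaving out the mixed clusters gave log2 ratios for Col4a1 in virus-rich cells of 0.42 for TBX18 over GFP at day 3, 0.24 for TBX18 over GFP at day 14, -1.08 for A83-01, 0.64 for day 14 over day 3 with GFP and 0.46 for day 14 over day 3 with TBX18. Col4a2 in virus-rich cells had -0.74 for A83-01, 1.16 for day 14 over day 3 with GFP and 1.20 for day 14 over day 3 with TBX18. Leaving out the cells with most UMIs from genes of the other compartment gave log2 ratios for Col4a1 in virus-poor cells of 0.13 for TBX18 over GFP at day 3, 0.015 for TBX18 over GFP at day 14, 0.94 for day 14 over day 3 with GFP and 0.83 for day 14 over day 3 with TBX18. Col4a1 in virus-rich cells had 0.53 for TBX18 over GFP at day 3, 0.18 for TBX18 over GFP at day 14, -1.10 for A83-01, 0.64 for day 14 over day 3 with GFP and 0.29 for day 14 over day 3 with TBX18. Col4a2 in virus-poor cells had -0.11 for TBX18 over GFP at day 3, 1.02 for day 14 over day 3 with GFP and 1.33 for day 14 over day 3 with TBX18. Col4a2 in virus-rich cells had 0.14 for TBX18 over GFP at day 3, 0.019 for TBX18 over GFP at day 14, -0.70 for A83-01, 1.19 for day 14 over day 3 with GFP and 1.07 for day 14 over day 3 with TBX18. Thinning to 5000 UMIs gave log2 ratios for Col4a1 in virus-poor cells of 0.22 for TBX18 over GFP at day 3, 0.057 for TBX18 over GFP at day 14, -0.61 for A83-01 and 0.72 for day 14 over day 3 with TBX18. Col4a1 in virus-rich cells had 0.20 for TBX18 over GFP at day 14 and 1.10 for day 14 over day 3 with GFP. Col4a2 in virus-poor cells had 0.078 for TBX18 over GFP at day 3 and 0.27 for TBX18 over GFP at day 14. Col4a2 in virus-rich cells had 0.17 for TBX18 over GFP at day 3 and 1.35 for day 14 over day 3 with TBX18. Holding both days to the day 14 range of genes and UMIs gave log2 ratios for Col4a1 in virus-poor cells of 0.22 for TBX18 over GFP at day 3 and 0.95 for day 14 over day 3 with GFP. Col4a1 in virus-rich cells had 1.34 for day 14 over day 3 with GFP and 1.00 for day 14 over day 3 with TBX18. Col4a2 in virus-poor cells had 0.079 for TBX18 over GFP at day 3 and 1.04 for day 14 over day 3 with GFP. Clustering each library alone gave log2 ratios for Col4a1 in virus-rich cells of 0.30 for TBX18 over GFP at day 14, -1.25 for A83-01 and 1.16 for day 14 over day 3 with TBX18. Col4a2 in virus-rich cells had 0.36 for TBX18 over GFP at day 14, -1.12 for A83-01 and 1.69 for day 14 over day 3 with TBX18. Omitting the filter on genes per cell gave log2 ratios for Col4a1 in virus-rich cells of 1.30 for day 14 over day 3 with GFP and 0.93 for day 14 over day 3 with TBX18.

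Counts of genes past 2-fold are given for TBX18 over GFP at day 3 and day 14, A83-01, and day 14 over day 3 with GFP and with TBX18. In virus-poor cells they were 97, 135, 429, 1404 and 1609, then 271, 602, 1505, 3756 and 4547 without the filter on low genes, and 378, 452, 1123, 2744 and 2878 were past 1.5-fold. In virus-rich cells they were 370, 174, 474, 832 and 911, then 1414, 762, 2086, 2979 and 3346 without the filter on low genes, and 1046, 585, 1453, 1824 and 1984 were past 1.5-fold. With A83-01, 253 genes in virus-rich cells were past 2-fold after median-of-ratios scaling, against 474.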
